A study of Mus musculus with 3 samples.

Results

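The 10 genes described here are Trp53, which encodes p53, and 9 genes that p53 is known to switch on: Mdm2, Ccng1, Zmat3, Phlda3, Eda2r, Bax, Bbc3, Sesn2 and Trp53inp1. They were chosen by symbol from the 32287 features of the count matrices, with earlier results of these data known. All 10 were above the level used for comparisons. Their RNA was counted mainly in Müller glia (MG), the radial glia of the retina, of mice with the genotype Glast-CreERT2; R26-CAG-LSL-Tdt. In these mice Cre, driven by the glial gene Glast and activated by 75 mg/kg tamoxifen from postnatal day 20, turns on the red reporter tdTomato. The study's methods differ from these labels in the dose and days of tamoxifen and in the control hairpin, and the labels are followed here. Every group received an adeno-associated virus (AAV7m8) with a GFAP promoter into the vitreous at postnatal day 28 and was harvested at day 51. Control eyes received AAV7m8-GFAP-GFP-LacZsh, which makes GFP and a hairpin RNA against LacZ, a gene that mice lack. CCA eyes (cell cycle activator) received AAV7m8-GFAP-cyclinD1-p27sh, which carries cyclin D1 and a hairpin against the cell cycle inhibitor p27, mixed 9:1 with the control virus. CCANT eyes received the CCA mixture, then NMDA, an excitotoxin that injures retinal neurons, at day 35 and trichostatin A (TSA), a histone deacetylase inhibitor, at day 37. Only retinas with good infection by GFP were used, 2 to 4 retinas were pooled per group, and tdTomato-positive cells were sorted and sequenced by 3′ droplet RNA-seq. Each group is 1 library, so there was no replicate and no test was possible. All intervals are exact 95% limits that cover counting error only.

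p53 is a transcription factor that is kept scarce by Mdm2, a ubiquitin ligase that p53 itself induces. When DNA damage, replication stress or an activated oncogene stabilises p53, it binds pairs of a short palindromic motif and raises genes that stop the cell cycle, restrain growth or prepare cell death. The best known arrest gene among its targets is Cdkn1a, which encodes p21, an inhibitor of cyclin-dependent kinases related to p27. Since much of p53 control acts on the protein, the level of Trp53 RNA is no measure of p53 activity.

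The positions of the genes in the mouse genome GRCm38 (GENCODE vM21) are as follows, each gene being protein coding. Trp53 lies on chromosome 11 from 69580359 to 69591873 on the plus strand. Mdm2 lies on chromosome 10 from 117688875 to 117710758, Ccng1 on chromosome 11 from 40748552 to 40755311, and Zmat3 on chromosome 3 from 32334792 to 32366014, all on the minus strand. Phlda3 lies on chromosome 1 from 135766119 to 135769136 on the plus strand and Eda2r on chromosome X from 97333840 to 97377216 on the minus strand. Bax and Bbc3 both lie on chromosome 7, Bax from 45461697 to 45466898 on the minus strand and Bbc3 from 16308393 to 16318205 on the plus strand. Sesn2 and Trp53inp1 both lie on chromosome 4, Sesn2 from 132492032 to 132510501 on the minus strand and Trp53inp1 from 11156431 to 11174379 on the plus strand. Gm12981 overlaps Sesn2 on the same strand, so reads of these 2 genes may not be told apart.

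The promoters of 8 of the 10 genes were searched for the 10-base motif that makes up 1 arm of the p53 response element, on both strands. The windows come from RefSeq (GRCm38.p6) and run from 250 bases before to 50 bases after each annotated start. There was no window for Zmat3 and Trp53inp1. The motif occurred in 2745 of all 32851 windows (8.36%) and in windows of 4 of the 8 genes. These 4 matches are shown with 4 bases on each side, with the motif in capitals, because they are the full matches found in these genes:

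Trp53 (chr11:69580280-69580297, plus strand): ggaaGGACTTGCCCttac

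Mdm2 (chr10:117710931-117710948, minus strand): atagGAACTTGCCTagcg

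Ccng1 (chr11:40755458-40755475, minus strand): gcccGGGCAAGCCTtggc

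Bax (chr7:45467086-45467103, minus strand): tcccAGGCAAGCTTtgaa

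No window of the 8 genes held a pair of such motifs within 13 bases of each other, and 24 of all 32851 windows (0.0731%) held one. For 20 bases made of 2 adjoining motifs, the closest stretch in each window was then scored. These 2 are shown because they had the fewest differences for an arrest gene and for a death gene, with matching bases in capitals and differing bases in lower case:

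Ccng1 (chr11:40755462-40755481, minus strand): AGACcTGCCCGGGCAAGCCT

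Bbc3 (chr7:16309486-16309505, plus strand): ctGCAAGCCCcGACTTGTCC

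The Ccng1 stretch differed from the 20-base element at 1 base, which 29 of all windows (0.0883%) reached or bettered. The Bbc3 stretch differed at 3 bases, as did the closest ones of Trp53 and Bax, and 6.29% of all windows came that near. The closest stretches of Mdm2, Phlda3 and Sesn2 differed at 5 bases and that of Eda2r at 6, and 76.6% of all windows had 5 or fewer differences. A match in letters is a description and not a site of binding, and p53 elements in introns or farther away lie outside these windows.

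The cells compared first were those that the authors kept in their joint count table: 3758 from control, 3890 from CCA and 3278 from CCANT, counted here in the library matrices. Their median depth was 24236, 20711 and 20722 unique molecular identifiers (UMIs, 1 per captured RNA molecule), and the 3 sums held 95458516, 83266870 and 70825549 UMIs. Levels are given as CPM, counts per 1000000, that is the UMIs of a gene divided by all UMIs of the summed cells. All 9 MG markers were detected in each library and summed to 26380, 26870 and 28700 CPM, while 9 rod markers summed to 296.5, 826 and 1465 CPM. The study kept clusters of rods and of MG with rod transcripts. In the clustering described below, 29 kept cells of control, 202 of CCA and 424 of CCANT fell in a class with MG and rod transcripts. Rod-like kept cells numbered 9, 27 and 14. Cdkn1b, which encodes p27, was at 225.9 CPM in control, 84.4 CPM in CCA and 105.7 CPM in CCANT. Ccnd1, which encodes cyclin D1, was at 213.3, 135.9 and 129 CPM, and whether 3′ reads of the vector's cyclin D1 are counted under this gene is not given in the sources used here, so it checks nothing. The libraries also differed in sex, read as at least 3 UMIs of Y-linked genes with at most 1 of Xist, or the reverse. By this rule 3505 control cells were Y-linked and 0 Xist cells, 0 and 3859 in CCA, and 1183 and 1718 in CCANT, and 253, 31 and 377 cells were not assigned. Treatment and sex can therefore not be told apart between control and CCA. Of 10912 kept barcodes, 14 occurred in more than 1 library.

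Every one of the 10 genes had a higher CPM in CCA than in control, and 6 were at least 1.5-fold higher: Eda2r, Bbc3, Phlda3, Ccng1, Bax and Sesn2. None was 1.5-fold lower. Over all 15121 genes of at least 1 CPM, 9.46% were 1.5-fold higher and 1.94% were 1.5-fold lower. The median log2 ratio was 0.72 over the 10 genes and 0.06 over all genes tested. Trp53 itself and its inhibitor Mdm2 were among the 4 genes that stayed under 1.5-fold.

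Trp53 was at 25.0 CPM in control (24.0 to 26.0), 31.6 CPM in CCA (30.4 to 32.8) and 30.03 CPM in CCANT (28.8 to 31.3). On the log2 scale CCA exceeded control by 0.34 (0.26 to 0.42), a 1.26-fold difference. Mdm2, the ligase that marks p53 for destruction, was at 43.5 CPM in control (42.2 to 44.9), 54.5 CPM in CCA (52.9 to 56.1) and 51.9 CPM in CCANT (50.3 to 53.7). Control was the lowest of the 3 libraries for both genes, and the intervals of CCA and CCANT overlapped.

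Among the genes tied to arrest and growth control, Ccng1 encodes cyclin G1, a cyclin that recruits phosphatase 2A to Mdm2. It was at 21.3 CPM in control (20.4 to 22.2), 35.5 CPM in CCA (34.3 to 36.8) and 27.7 CPM in CCANT (26.5 to 28.9). The 3 intervals did not overlap, and CCA was the highest at 1.67-fold over control. Zmat3, an RNA-binding zinc finger protein that acts in growth suppression, was at 18.1 CPM in control (17.3 to 18.99), 23.8 CPM in CCA (22.8 to 24.9) and 25.6 CPM in CCANT (24.4 to 26.8). Sesn2, the stress sensor sestrin 2 that lowers mTORC1 signaling, was at 5.81 CPM in control (5.34 to 6.32), 9.57 CPM in CCA (8.92 to 10.3) and 7.99 CPM in CCANT (7.35 to 8.68). For Sesn2, as for Ccng1, CCANT lay between control and CCA, with CCA above control by 0.72 on the log2 scale (0.56 to 0.88). Trp53inp1, a stress-induced nuclear protein that also takes part in autophagy, was at 33.5 CPM in control (32.4 to 34.7), 41.3 CPM in CCA (39.9 to 42.7) and 36.2 CPM in CCANT (34.8 to 37.6), the smallest ratio of CCA over control of the 10 genes, a log2 of 0.30 (0.23 to 0.37).

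Of the genes tied to survival signaling and death, Eda2r, Bbc3 and Phlda3 held the 3 largest ratios. Phlda3, a pleckstrin homology protein that opposes Akt, was at 26.2 CPM in control (25.2 to 27.3), 62.2 CPM in CCA (60.5 to 63.9) and 68.0 CPM in CCANT (66.1 to 70.0). Eda2r, the receptor for ectodysplasin A2, was at 1.71 CPM in control (1.46 to 1.99), 9.01 CPM in CCA (8.37 to 9.68) and 9.16 CPM in CCANT (8.47 to 9.90). Eda2r had the largest ratio of the 10 genes, a log2 of 2.40 (2.15 to 2.65) or 5.28-fold in CCA, and ranked 176th from the highest of 15121 genes. Bax, the effector that opens the outer mitochondrial membrane, was at 48.6 CPM in control (47.2 to 50.0), 80.7 CPM in CCA (78.7 to 82.6) and 77.4 CPM in CCANT (75.3 to 79.4). Bbc3, which encodes the BH3-only protein PUMA upstream of Bax, was at 2.22 CPM in control (1.93 to 2.54), 6.81 CPM in CCA (6.26 to 7.39) and 5.03 CPM in CCANT (4.52 to 5.58). CCA and CCANT lay above control for each of these 4 genes, with no overlap of intervals. For Bbc3 and Bax the log2 differences between CCA and control were 1.62 (1.39 to 1.85) and 0.73 (0.68 to 0.79), and for Phlda3 the ratio was 1.25 (1.18 to 1.32).

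**Figure D1:**
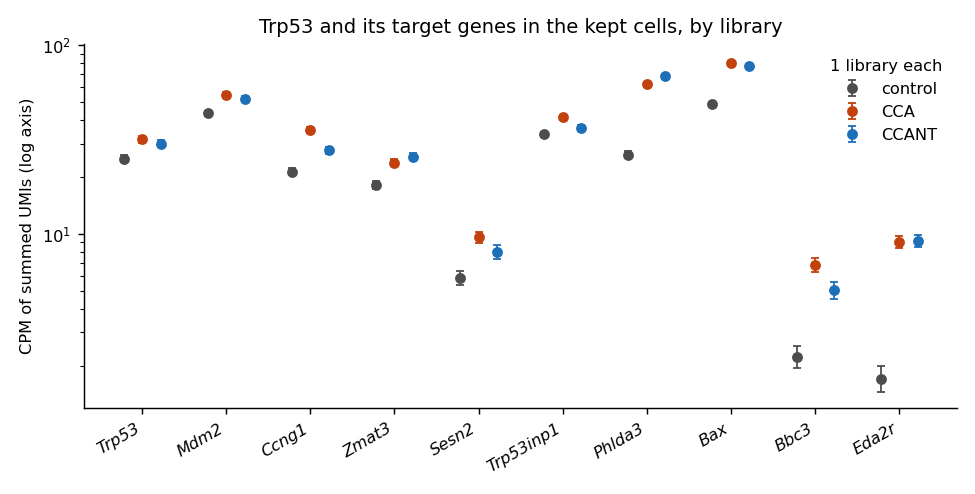
Level of each of the 10 genes in CPM in the kept cells of control, CCA and CCANT, with exact 95% counting intervals as bars. Control is the lowest of the 3 libraries for every gene, and the largest ratio is that of Eda2r, from 1.71 CPM in control to 9.01 CPM in CCA.

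In CCANT, 4 of the 10 genes were at least 1.5-fold higher than in control and none was lower, against 9.4% higher and 4.11% lower over all genes. They were Eda2r at a log2 ratio of 2.42 (2.17 to 2.68), Phlda3 at 1.37 (1.30 to 1.44), Bbc3 at 1.18 (0.93 to 1.43) and Bax at 0.67 (0.61 to 0.73). This comparison uses the same control cells as that of CCA. Set directly against CCA, no gene of the 10 was 1.5-fold higher or lower in CCANT, where 2.2% of all genes were higher and 4.18% lower. The lowest log2 ratios of CCANT over CCA were those of Bbc3, -0.44 (-0.63 to -0.24), Ccng1, -0.36 (-0.45 to -0.28), Sesn2, -0.26 (-0.42 to -0.10), and Trp53inp1, -0.19 (-0.26 to -0.12). Phlda3 was the highest at 0.13 (0.07 to 0.19), and the interval of Eda2r included 0, at 0.03 (-0.13 to 0.18).

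Within CCANT, each of the 10 genes had a higher CPM in cells with Y-linked UMIs than in cells with Xist. Eda2r was at 11.7 CPM in CCANT cells with Y-linked UMIs and at 7.36 CPM in those with Xist, both above the 1.71 CPM of control. Phlda3 was at 78.5 and 59.1 CPM in the same cells, Bax at 81.6 and 72.2 CPM, and Ccng1 at 31.3 and 24.6 CPM. Cdkn1a was also higher in the cells with Y-linked UMIs, at 81.3 and 49.6 CPM. When cells with Y-linked UMIs were compared on both sides, 6 of the 10 genes were 1.5-fold higher in CCANT than in control, against 10.4% of all genes. Zmat3 at a log2 ratio of 0.67 and Sesn2 at 0.68 joined the other four. Whether animals, infection or sex gave the difference within CCANT was not tested.

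Other genes of the pathway were read from lists that hold none of the 10. These lists were chosen with earlier results of these data known, so their counts are descriptions. Of 29 other p53 target genes tested, 13 were 1.5-fold higher in CCA than in control and 0 lower, against 9.46% and 1.94% of all genes, with a median log2 ratio of 0.43. The largest ratios were those of Ckap2 at 6.30 and Psrc1 at 4.98, both microtubule proteins that are high in mitosis, Gdf15 at 3.94, a secreted stress cytokine, Cdkn1a at 3.01, the noncoding RNA Pvt1 at 2.23 and the antiproliferative gene Btg2 at 1.44. In CCANT 11 of these 29 were higher and 0 lower, against 9.4% and 4.11% of all genes. Of 21 regulators of p53, 4 were higher and 1 lower in CCA, against the same 9.46% and 1.94%, with a median of -0.01. Cdkn2a, whose product p19Arf restrains Mdm2, had a log2 ratio of 3.97, the checkpoint kinases Chek1 and Chek2 had 1.80 and 1.40, Ppp1r13l, an inhibitor of p53, had 0.65, and Trp63, a relative of p53, had -0.77. Cdkn2a counts also include the transcript of p16Ink4a, which a 3′ count does not separate.

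Of 16 other members of the Bcl-2 family and the apoptosome, 2 were 1.5-fold higher in CCA and 0 lower, near the 9.46% and 1.94% of all genes. They were the BH3-only genes Hrk at a log2 ratio of 0.79 and Bcl2l11 at 0.78. In CCANT the 2 that were higher, where 9.4% of all genes were, were Bcl2l11 at 1.33 and Bmf at 0.68. Of 12 genes of the integrated stress response, a pathway that also controls Sesn2, 2 were higher and 1 lower in CCA, on the same background, with Ppp1r15a at 1.37, Asns at 0.72 and the cystine carrier Slc7a11 at -0.59. Immediate-early and dissociation genes, which respond to the handling of cells, moved with the groups too. Of these 18 genes, 13 were 1.5-fold higher in CCA and 0 lower, led by Egr2 at 2.51 and Nr4a1 at 2.42, and the list summed to 5481 CPM in control, 8893 CPM in CCA and 8469 CPM in CCANT. In the cells at or under the median share of that list, 6 of the 10 p53 genes were 1.5-fold higher in CCA than in control, against 8.68% of all genes, with a median log2 ratio of 0.65. In CCANT 3 of the 10 were higher in such cells, against 8.87%, with a median of 0.40 in place of 0.48.

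The share of cells with a UMI was read after each cell was thinned at random to 8000 UMIs, which left 3722 control, 3787 CCA and 3225 CCANT cells and dropped 36, 103 and 53 shallower ones. Phlda3 was seen in 18.0% of control cells, 31.4% of CCA cells and 33.4% of CCANT cells, and Bax in 31.7%, 43.8% and 42.4%. Eda2r was seen in 1.29%, 5.44% and 4.84% of cells and Bbc3 in 1.72%, 5.39% and 3.26%. The CCA and CCANT shares were thus above control for all 4 of these genes, while that of Trp53inp1 was close in the 3 libraries, at 23.2%, 23.6% and 22.5%. At 8000 UMIs per cell, the cell with the most Mdm2 held 4 UMIs in control, 19 in CCA and 9 in CCANT. For Ccng1 the highest cells held 5, 18 and 3 UMIs. These are values of single cells, and 2 or more Ccng1 UMIs were found in 1.72% of control, 4.86% of CCA and 3.07% of CCANT cells. At full depth, where libraries differ in UMIs per cell, the highest Ccng1 counts were 8, 30 and 12, and those of Mdm2 8, 37 and 26.

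Cdkn1a, the arrest gene, was used to order cells by their own level of a p53 target that is not among the 10. At 8000 UMIs per cell it was detected in 5.48% of control cells, 25.1% of CCA cells and 20% of CCANT cells. CCA cells fell into classes with 0 Cdkn1a UMIs (2836 cells), 1 to 2 (620 cells), 3 to 5 (251 cells) and 6 or more (80 cells). CCANT had 2580, 442 and 203 cells with 0, 1 to 2 and 3 or more, and control had 3518 cells without and 204 cells with a UMI. Classes of under 50 cells were joined to the next lower one.

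In CCA the levels of 9 of the 10 genes stepped up through all 4 Cdkn1a classes. All 10 were at least 1.5-fold higher in the highest class than in cells without Cdkn1a, with a median log2 ratio of 2.28. This is read against a wide background, since 19.2% of all genes were 1.5-fold higher and 18.2% lower in these 80 cells, with a median of 0.03. Phlda3 was at 34.7, 109.3, 196.2 and 348.4 CPM from the lowest class to the highest. Eda2r was at 3.17, 19.96, 36.9 and 53.1 CPM, and Bbc3 at 4.01, 10.5, 30.4 and 42.2 CPM. Bax was at 59.9, 124.8, 195.2 and 226.6 CPM. For all 10 genes, the cells with 1 to 2 Cdkn1a UMIs were already above the cells with none, with no overlap of intervals.

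Ccng1 showed a similar gradient, at 23.5, 49.0, 98.6 and 182.8 CPM. Mdm2, which differed little between the libraries as a whole, was at 46.9, 62.1, 100.6 and 198.4 CPM, and Trp53 at 28.6, 38.1, 54.8 and 81.2 CPM. The steps of these 2 genes were larger than their gap between CCA and control. Sesn2 was at 5.91, 13.9, 22.4 and 32.8 CPM and Zmat3 at 20.2, 28.02, 50.3 and 75.0 CPM. Trp53inp1 was the exception to a steady order, at 28.6, 58.9, 108.1 and 95.3 CPM. The log2 ratios of the highest class over cells without Cdkn1a ran from 1.5 for Trp53 and 1.73 for Trp53inp1 to 3.33 for Phlda3, 3.40 for Bbc3 and 4.07 for Eda2r.

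In CCANT 9 of the 10 genes were 1.5-fold higher in cells with 3 or more Cdkn1a UMIs than in cells with none, with a median log2 ratio of 1.82, where 11.2% of all genes were higher and 9.52% lower. Eda2r was at 3.05, 17.0 and 49.3 CPM in the 3 classes, Phlda3 at 44.5, 112 and 243.8 CPM and Mdm2 at 46.0, 53.5 and 102.8 CPM. Trp53 was the gene that was not called, at 29.0, 36.8 and 31.4 CPM and a log2 ratio of 0.11 (-0.33 to 0.53). The 9 target genes thus stepped up with Cdkn1a in CCANT where Trp53 RNA did not. In control, 8 of the 10 genes were 1.5-fold higher in the 204 cells with Cdkn1a, against 7.01% of all genes, and 10.3% of all genes were lower. Eda2r was at 1.39 and 10.4 CPM in control cells without and with Cdkn1a, Phlda3 at 25.1 and 72.9 CPM and Ccng1 at 19.9 and 46.0 CPM. Mdm2 at a log2 ratio of 0.49 and Trp53 at 0.57 were the 2 genes under 1.5-fold.

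**Figure D2:**
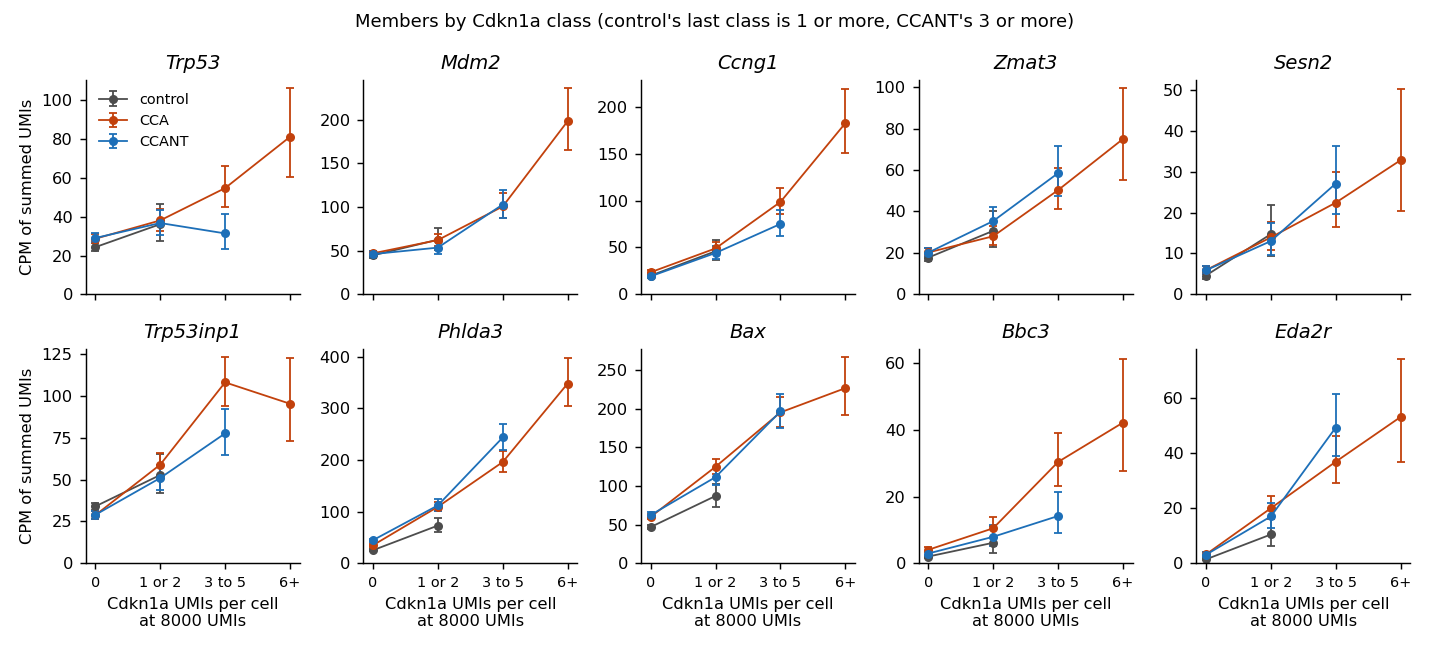
Level of each gene in CPM by class of Cdkn1a UMIs per cell at 8000 UMIs per cell, one line per library, with exact 95% counting intervals. The last class is 1 or more in control, 3 or more in CCANT and 6 or more in CCA; Eda2r in CCA goes from 3.17 CPM in cells with 0 Cdkn1a UMIs to 53.1 CPM in cells with 6 or more.

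Of the 28 tested besides Cdkn1a, which sets the classes, 20 were 1.5-fold higher and 2 lower in the highest CCA class, where 19.2% of all genes were higher and 18.2% lower. The largest ratios were those of Gdf15 at a log2 of 5.47, Psrc1 at 4.50, Pvt1 at 2.92 and the nuclease Aen at 2.75. One of the 2 lower genes, Cgref1, named after its value was seen, had no UMI in the 80 cells. In CCANT 21 of the 28 were higher and 0 lower, against 11.2% and 9.52% of all genes, and in control 12 and 0, against 7.01% and 10.3%. Of the 21 regulators, 4 were higher and 4 lower in the highest CCA class, shares near those of all genes, with Cdkn2a at 2.49 and Chek2 at 1.72. Of the 16 Bcl-2 family and apoptosome genes, 8 were higher and 2 lower, among them Hrk at 2.33 and the BH3-only gene Bid at 1.34, and the survival gene Bcl2l2 was at -0.95. Of the 12 integrated stress response genes 7 were higher and 1 lower, with Asns at 2.10 and Ddit3 at 1.52.

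Other measures moved with the Cdkn1a classes of CCA. From cells with 0 to cells with 6 or more Cdkn1a UMIs, the median share of MG marker UMIs went from 2.85% to 1.69%, that of immediate-early and dissociation genes from 0.794% to 1.13%, and that of mitochondrial UMIs from 3.57% to 2.48%. Rod markers summed to 770 CPM in cells with 0 and 1198 CPM in cells with 6 or more. In cells at or under the median share of immediate-early and dissociation genes, 10 of the 10 genes were 1.5-fold higher in the highest CCA class, against 25.3% of all genes higher and 20.8% lower. The same count was found with cells under 1% rod marker UMIs, against 19.4% and 18.3%. In CCANT, rod markers summed to 1311 CPM in cells with 0 and 2081 CPM in cells with 3 or more Cdkn1a UMIs, and immediate-early and dissociation genes to 8075 and 11100 CPM. In CCANT cells at or under the median immediate-early share, 8 of the 10 genes were 1.5-fold higher with 3 or more Cdkn1a UMIs, against 11.1% of all genes higher and 10.3% lower, with a median log2 ratio of 1.18 in place of 1.82. Without thinning, Cdkn1a was detected in 34.6% of MG-like CCA cells at a median of 20380 UMIs. It was detected in 30.4% of retinal ganglion-like cells at 51410 UMIs and in 30.3% of pericyte-like cells at 12010 UMIs. Amacrine-like cells had it in 14.3% at 22980 UMIs, bipolar-like cells in 7.07% at 15870 UMIs and rod-like cells in 3.10% at 4965 UMIs. In control the shares in the same order were 11.8%, 30.6%, 18.2%, 8.97%, 2.38% and 0.47%. The share of retinal ganglion-like cells was alike in control and CCA, and those of the other classes were higher in CCA. A sum was made as if every MG transcript were carried over in proportion to the class's MG markers. For CCA it gave 10.02 CPM of Cdkn1a in bipolar-like cells, beside 13.6 CPM measured, and 9.14 CPM in amacrine-like cells, beside 12.2 CPM. In rod-like cells it gave 4.59 CPM, beside 7.07 CPM measured. It gave 18.6 CPM in pericyte-like cells, beside 45.2 CPM, and 4.42 CPM in retinal ganglion-like cells, beside 13.5 CPM. How much of the Cdkn1a in cells with 1 to 2 UMIs was free RNA was not tested.

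In CCA, cells with a Cdkn1a UMI made up 25.1% of cells and held 74.2% of the Eda2r UMIs, 60.6% of the Bbc3 UMIs, 59.5% of the Phlda3 UMIs and 51.2% of the Ccng1 UMIs. They held the smallest shares for Mdm2, 37.5%, and Trp53, 35.1%. Cells without Cdkn1a are here those with no Cdkn1a UMI left after thinning. Without thinning, Cdkn1a was detected in 35.8% of CCA cells, 29.96% of CCANT cells and 11.9% of control cells. After thinning it was detected in 25.1%, 20% and 5.48%. Some cells counted as without Cdkn1a therefore held it at full depth, and their part in the ratios below was not tested. Set against each other, the cells without Cdkn1a showed a smaller gap between the libraries. In these cells, 2 of the 10 genes were 1.5-fold higher in CCA than in control, Eda2r at a log2 ratio of 1.20 and Bbc3 at 1.01, against 8.23% of all genes higher and 2.49% lower. The median over the 10 genes was 0.30 there, Phlda3 was at 0.47 and Bax at 0.36, and Trp53inp1 was at -0.24 (-0.39 to -0.10). Cells with 1 or more Cdkn1a UMIs also differed between CCA and control, with Cdkn1a itself at a log2 ratio of 0.83. Bbc3 was at 1.59 in them, Eda2r at 1.385, Phlda3 at 1.06, Bax at 0.80 and Ccng1 at 0.67. The other genes lay from 0.27 for Sesn2 to 0.51 for Trp53inp1. For CCANT over control in cells without Cdkn1a, 2 genes were 1.5-fold higher, Eda2r at 1.14 and Phlda3 at 0.83, against 9.03% of all genes higher and 4.56% lower. For CCANT over CCA in these cells none was called, against 3.07% higher and 4.42% lower.

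CCA and CCANT were also compared at a like level of Cdkn1a. Cells with 3 or more Cdkn1a UMIs numbered 331 in CCA and 203 in CCANT and had Cdkn1a at 623 and 592 CPM. Trp53 was at 61.2 CPM in these CCA cells and 31.4 CPM in these CCANT cells, a log2 ratio of CCANT over CCA of -0.96 (-1.45 to -0.50). Bbc3 was at 33.2 and 14.2 CPM, a log2 ratio of -1.23 (-1.96 to -0.56), and Ccng1 at 119 and 75.1 CPM, a log2 ratio of -0.66 (-0.98 to -0.36). These 3 of the 10 genes were 1.5-fold lower and 0 higher, against 15.5% of all genes lower and 10.1% higher, and Trp53inp1 was at -0.44 (-0.75 to -0.13), short of 1.5-fold. The other six lay closer together, with log2 ratios of -0.27 for Mdm2, -0.05 for Bax, 0.06 for Zmat3, 0.07 for Phlda3, 0.12 for Sesn2 and 0.27 for Eda2r.

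Cycling cells were taken as cells with at least 1 UMI of Mki67 or Top2a, genes of proliferating cells. They numbered 42 in control (1.12%), 752 in CCA (19.3%) and 299 in CCANT (9.12%). In CCA, 1 of the 10 genes was 1.5-fold higher in cycling than in other cells and none was lower, against 7.77% of all genes higher and 1.82% lower. That gene was Eda2r, at 12.2 CPM in cycling and 8.14 CPM in other cells, a log2 ratio of 0.59 (0.35 to 0.82), just past the threshold. Bax was at 105.4 and 74.0 CPM, a log2 ratio of 0.51 (0.43 to 0.59), Phlda3 at 78.3 and 57.9 CPM, 0.43 (0.34 to 0.52), and Ccng1 at 43.1 and 33.5 CPM, 0.36 (0.24 to 0.48). Cycling cells were the higher for all of these. Trp53 was at 37.3 and 30.02 CPM, Trp53inp1 at 47.2 and 39.7 CPM, Mdm2 at 60.7 and 52.9 CPM, Zmat3 at 26.6 and 23.1 CPM and Sesn2 at 10.9 and 9.22 CPM. Bbc3 was the only gene of the 10 with the lower level in cycling CCA cells, at 6.15 and 6.99 CPM, and its log2 ratio of -0.18 (-0.50 to 0.12) included 0. When at least 2 UMIs of Mki67 and Top2a were asked for, 5 of the 10 genes were 1.5-fold higher, Bax at 0.88, Trp53 at 0.73, Eda2r at 0.68, Sesn2 at 0.67 and Phlda3 at 0.65, against 15.2% of all genes higher and 10.7% lower.

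In CCANT none of the 10 genes was 1.5-fold higher or lower in cycling cells, against 7.87% of all genes higher and 3.53% lower. The highest log2 ratios were those of Sesn2 at 0.58 (0.23 to 0.92), Phlda3 at 0.52 (0.40 to 0.63) and Trp53 at 0.47 (0.29 to 0.65), and the lowest was that of Trp53inp1 at -0.09 (-0.29 to 0.09). The 42 cycling control cells gave wide intervals: none of the 10 genes was called, against 10% of all genes higher and 12% lower, and Eda2r had an interval from -3.11 to 1.83. A UMI of Mki67 or Top2a was also found in cell classes that should lack them, in CCA in 16.5% of retinal ganglion-like cells at a median of 51410 UMIs, 8.24% of amacrine-like cells at 22980 UMIs, 6.51% of bipolar-like cells at 15870 UMIs and 3.69% of rod-like cells at 4965 UMIs, against 15.1% of MG-like cells at 20380 UMIs. Part of the cells taken as cycling can therefore hold free RNA, and its share was not tested. The MG-like share of 15.1% leaves out a cluster led by mitotic genes (687 cells, 519 of them from CCA). Of the kept CCA cells, 19.3% were taken as cycling.

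**Figure D3:**
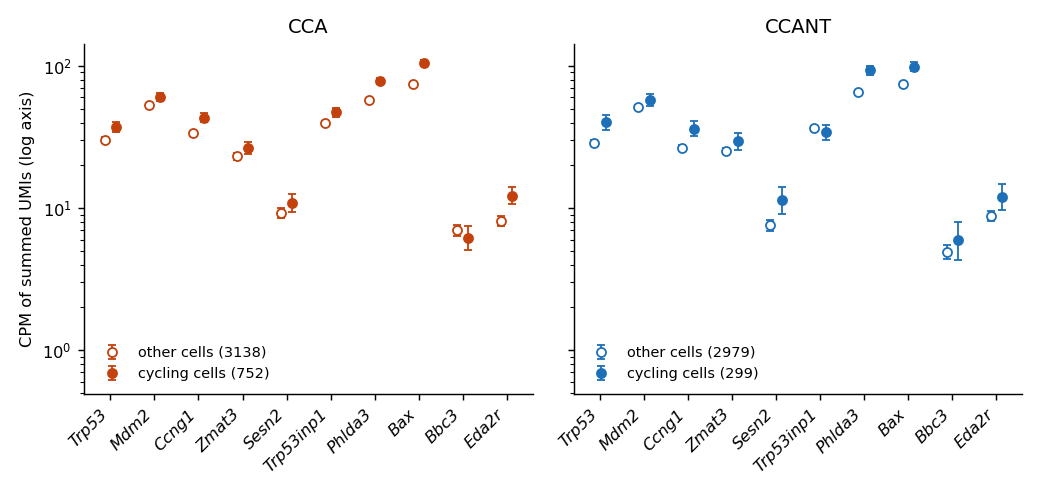
Level of each gene in CPM in cycling cells (at least 1 Mki67 or Top2a UMI) and in other cells of CCA and CCANT, with exact 95% counting intervals. In CCA cycling cells lie above other cells for 9 of the 10 genes, with Eda2r at 12.2 and 8.14 CPM.

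The splits by cycling and by Cdkn1a were then crossed, with cycling cells taken from all their UMIs and Cdkn1a and the levels read at 8000 UMIs per cell. CCA held 246 cycling cells with a Cdkn1a UMI, 482 cycling cells without, 705 other cells with and 2354 other cells without. Among cycling cells, 9 of the 10 genes were 1.5-fold higher with Cdkn1a than without, against 12.1% of all genes higher and 8.87% lower, the exception being Trp53 at a log2 ratio of 0.48 (0.07 to 0.89). Among other cells all 10 genes were higher, against 8.2% of all genes higher and 3.66% lower. Eda2r had log2 ratios of 2.92 (2.08 to 3.85) in cycling and 3.13 (2.68 to 3.59) in other cells, and Phlda3 had 1.70 (1.43 to 1.98) and 2.24 (2.09 to 2.39). The 10 genes had medians of 1.30 and 1.55, so both kinds of cells had a gap between cells with and without Cdkn1a. By contrast, among CCA cells without Cdkn1a none of the 10 was 1.5-fold higher in cycling than in other cells, against 8.26% of all genes higher and 4.64% lower, and Phlda3 at 0.47 (0.22 to 0.71) and Bax at 0.30 (0.10 to 0.49) had intervals above 0. In CCANT, 9 of the 10 genes were higher with Cdkn1a among 92 and 204 cycling cells, against 16.6% of all genes higher and 15.5% lower, and 8 of the 10 among 553 and 2376 other cells, against 5.03% and 4.55%. Among CCANT cells without Cdkn1a, 2 of the 10 genes were past 1.5-fold upward in cycling cells, against 9.65% of all genes higher and 9.1% lower. They were Bbc3 at 0.84 (-0.444 to 1.925) and Sesn2 at 0.61 (-0.311 to 1.417), and both intervals included no difference.

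The 10 genes were also read in other retinal cells of the same libraries. For this, every barcode that reached 2000 features without passing 100000 UMIs or 15% mitochondrial UMIs was clustered with no filter on tdTomato, and clusters were named from marker genes. MG-like cells numbered 5660 in control, 4491 in CCA and 4919 in CCANT and came from 4 clusters. Of these, 3712, 3404 and 2757 were kept cells that had been compared above. Most control cells of the class lay in clusters 1 and 6 and most CCANT cells in clusters 2 and 3, with CCA spread over clusters 1, 2 and 3. A cluster of 687 cells led by mitotic genes such as Cenpf and Top2a was left unnamed and out of the classes. It held 0 control, 519 CCA and 168 CCANT cells, so only CCA and CCANT lost cells with it.

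In control each gene had its own order over the cell classes. Trp53 was highest in pericyte-like cells at 46.2 CPM and microglia- and macrophage-like cells at 44.2 CPM, followed by MG-like cells at 25.2 CPM, and lowest in bipolar-like cells at 11.9 CPM. Mdm2 was the most even, from 59.4 CPM in cone-like and 59.3 CPM in rod-like cells to 38.7 CPM in retinal ganglion-like cells. Ccng1 was at 98.2 CPM in bipolar-like cells, against 17.96 CPM in amacrine-like cells and 21.4 CPM in MG-like cells. The level of Ccng1 in bipolar-like cells was also the highest of all classes after CCA, at 106.8 CPM, and in CCANT, at 82.0 CPM. Zmat3 was highest in retinal ganglion-like cells at 46.8 CPM and amacrine-like cells at 34.8 CPM, and Phlda3 in pericyte-like cells at 41.2 CPM and MG-like cells at 27.1 CPM, against 2.16 CPM in rod-like cells. Bax was highest in microglia- and macrophage-like cells at 85.9 CPM. Bbc3 was at 10.4 CPM in these cells and level with that in retinal ganglion-like cells, at 10.3 CPM. Sesn2 was highest in cone-like cells at 11.3 CPM and lowest in rod-like cells at 2.80 CPM, and Trp53inp1 was highest in MG-like cells at 33.2 CPM. Eda2r was at 2.12 CPM in cone-like cells, on 6 UMIs, and at 1.75 CPM in MG-like cells, and had no UMI in control rod-like, retinal ganglion-like and pericyte-like cells.

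In MG-like cells, 6 of the 10 genes were 1.5-fold higher in CCA than in control, each with an interval above 0, against 7.33% of all genes higher and 1.73% lower. They were Eda2r at a log2 ratio of 2.50, Bbc3 at 1.65, Phlda3 at 1.22, Ccng1 at 0.74, Sesn2 at 0.68 and Bax at 0.66. Most MG-like cells were kept cells, so these values largely repeat the first comparison and are no separate result. In cells with both MG and rod transcripts 7 of the 10 were higher, against 9.77% of all genes higher and 4.18% lower, with Eda2r at 157 UMIs in CCA and 2 UMIs in control, a log2 ratio of 5.59 (3.71 to 8.65). In CCANT the counts were 4 of 10 in MG-like cells, against 7.47% of all genes higher and 3.62% lower, and 6 of 10 in mixed cells, against 9.94% and 7.64%.

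In bipolar-like cells 2 of the 10 were 1.5-fold higher in CCA, against 6.74% of all genes higher and 4.26% lower: Phlda3, at 5.91 CPM in control and 11.2 CPM in CCA, a log2 ratio of 0.93 (0.52 to 1.35), and Eda2r, on 1 control UMI and 16 CCA UMIs, a log2 ratio of 3.49 (0.80 to 8.88). In amacrine-like cells Eda2r was the only one, on 3 control and 32 CCA UMIs, a log2 ratio of 3.13 (1.46 to 5.49), against 4.96% of all genes higher and 4.72% lower. Phlda3 in amacrine-like cells was level, at 20.7 and 21.2 CPM and a log2 ratio of 0.03 (-0.15 to 0.21). In rod-like cells 3 genes were past 1.5-fold upward and 1 downward, and in cone-like cells 1 upward, and every one of these intervals included no difference. Over all genes 9.92% were higher and 8.64% lower in rod-like cells, and 9.53% higher and 14.1% lower in cone-like cells. In retinal ganglion-like cells 0 of 9 genes tested were called, against 6.71% higher and 11.2% lower. In CCANT, rod-like cells had 4 of the 10 genes 1.5-fold higher, against 13.5% of all genes, and 2 of them had an interval above 0: Phlda3 at 1.42 (0.40 to 2.59) and Bax at 0.65 (0.36 to 0.94). Bipolar-like cells of CCANT had 2, against 8.12%, Phlda3 at 1.08 (0.68 to 1.49) and Eda2r at 3.65 (1.00 to 9.02) on 1 control UMI. Cone-like cells had 2, against 12.3%, of which Phlda3 at 0.95 (0.32 to 1.63) had an interval above 0. Amacrine-like cells had Eda2r at 2.65 (0.88 to 5.05) on 3 control UMIs, against 5.75%. Retinal ganglion-like cells had 2 of 9 higher, against 7.22% of all genes higher and 12.6% lower, Phlda3 at 0.87 (0.39 to 1.33) and Trp53 at 0.59 (0.07 to 1.10), and 1 lower, whose interval included no difference.

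MG transcripts were present in every one of these classes. In CCA the summed MG markers stood, relative to MG-like cells, at 5.73% in retinal ganglion-like, 5.95% in rod-like, 11.8% in amacrine-like, 12.98% in bipolar-like, 13.9% in cone-like and 24.1% in pericyte-like cells. If every MG transcript were carried over at its class's share, bipolar-like CCA cells would hold 8.19 CPM of Phlda3 and 1.28 CPM of Eda2r, beside 11.2 and 0.976 CPM measured. Amacrine-like CCA cells would hold 1.17 CPM of Eda2r, beside 1.22 CPM measured, and 7.48 CPM of Phlda3, beside 21.2 CPM. The measured Eda2r of both classes was thus close to or under that sum. In CCANT the sum gave 4.82 CPM of Phlda3 in rod-like cells, beside 5.79 CPM measured, 10.2 CPM in bipolar-like cells, beside 12.5 CPM, and 14.5 CPM in cone-like cells, beside 18.5 CPM, so it came to most of the measured Phlda3 in these 3 classes. It came to less in retinal ganglion-like CCANT cells, 3.81 CPM beside 23.4 CPM measured, and in amacrine-like ones, 9.11 CPM beside 22.6 CPM. It gave 5.56 CPM of Bax in rod-like CCANT cells, beside 48.96 CPM measured. The bipolar-like class included a cluster of 227 cells with MG markers at a median log2 excess of 1.25. Its cells had 1.68 times the median depth of their libraries. A finer clustering gave 102 cells with both MG and cone markers. Whether such MG transcripts were carried over or came from 2 cells captured together was not tested.

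Pericyte-like cells were few, 55 in control and 99 in CCA, and the 40 in CCANT were too few to compare. Of the 10 genes 3 were past 1.5-fold upward in CCA, against 22% of all genes higher and 12.9% lower. Trp53inp1 was at 31.2 CPM in control and 50.0 CPM in CCA, a log2 ratio of 0.68 (0.02 to 1.39). Bbc3 rested on 1 control UMI and 5 CCA UMIs, with a log2 interval from -1.89 to 6.84, and Eda2r on 0 and 4 UMIs. Trp53 was at 46.2 and 33.7 CPM in these cells, a log2 ratio of -0.45 (-1.08 to 0.19). In microglia- and macrophage-like cells 2 genes were higher in CCA, against 12.1% of all genes higher and 11.1% lower, of which Phlda3 had an interval above 0, at 1.29 (0.41 to 2.21), with MG markers at 60.3% of the level in MG-like cells. That share would give 38.05 CPM of Phlda3, beside 8.23 CPM measured, so it is no gauge of carried-over RNA in this class, and Apoe, one of the markers, is also a gene of macrophages. In CCANT 4 of the 10 genes were higher in this class, against 21.3% of all genes higher and 9.65% lower. Of these, Phlda3 at 2.38 (1.60 to 3.21), Trp53inp1 at 0.85 (0.44 to 1.27) and Sesn2 at 0.66 (0.004 to 1.31) had an interval above 0, and Eda2r rested on 1 control UMI and 4 CCANT UMIs. MG markers stood at 98.5% of the level in MG-like cells there.

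**Figure D4:**
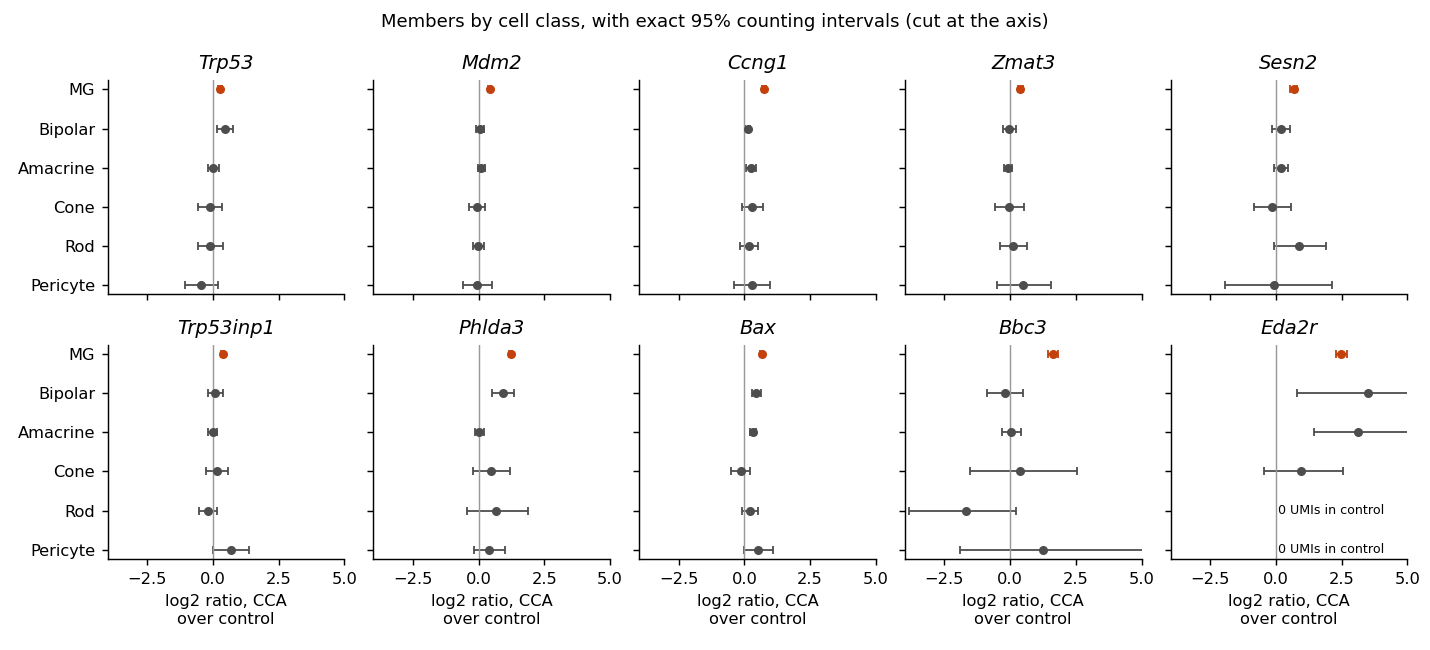
Log2 ratio of CCA over control for each gene in MG-like, bipolar-like, amacrine-like, cone-like, rod-like and pericyte-like cells, with exact 95% counting intervals and a line at 0. MG-like cells have narrow intervals above 0, as for Phlda3 at 1.22, whereas most intervals of neurons and pericyte-like cells include 0.

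Genes with a like pattern over the classes were looked up for Trp53 and Mdm2, by Pearson correlation of log2(CPM + 1) over 25 sums of a class in a library, from 10 classes. These sums share libraries and carried-over transcripts, so the values are descriptions. The 5 genes most like Trp53 were Surf4 (0.962), Rhoa (0.953), Mdfic (0.953), Clic4 (0.952) and Slc35d2 (0.949). The 5 most like Mdm2 were Hmgb2 (0.837), Alkbh4 (0.820), Tra2b (0.811), Ttll3 (0.806) and Nfatc2ip (0.80). The closest correlations of Mdm2 were lower than those of Trp53.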

How the data were processed

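The 3 libraries were made with the 10x Chromium 3′ v3.1 kit. Per the labels, the authors deposited UMI counts made with Cell Ranger 6.1.1 on mm10, and the study's methods add GFP and tdTomato features and counting of intronic reads, so unspliced RNA is included. The authors also deposited a joint count table of kept cells (at least 2000 features, at most 100000 UMIs, at most 15% mitochondrial UMIs, tdTomato-positive, doublets and contaminated clusters removed), from which Y-linked genes, Xist and Tsix were removed. The kept barcodes were counted in the library matrices, because control cells hold a median of 93.1% of their UMIs in the joint table and cells of CCA and CCANT hold 99.9%. No column of another series was found (0).

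UMIs were summed over cells and divided by the total, with exact Poisson intervals for levels and ratios and exact Clopper-Pearson intervals for shares, in Python 3.11.15, NumPy 2.4.6, SciPy 1.17.1 and pandas 2.3.3. With 1 library per group no p-value was computed. Genes with a mean of at least 1 CPM were compared, and 1.5-fold was the threshold of a call. The ratio scripts were checked on simulated data. Cells were clustered with Scanpy 1.11.5 and leidenalg 0.10.2 (2000 variable genes, 20 components, 20 neighbours, resolution 0.5). A cluster was named where its markers had a median log2 excess of at least 1.5 and at least 3 of them were raised, and this naming rule was set after the clusters were seen. The rule for named genes took all 10 genes in every comparison, of which some comparisons name fewer and give the rest by counts, and, from each list, Cdkn1a and at most 6 genes past 1.5-fold by size. Plots were drawn with matplotlib 3.10.9. The members and gene lists were chosen with earlier results of these data known. Alternatives covered depth, normalization, the threshold, low genes, rod and immediate-early transcripts, sex, cycling cells, doublets and clustering.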

Additional observations from a re-analysis of the deposited data

How the results depend on the processing

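No paired analysis was possible because each group has 1 library, and for the same reason no replicate could be left out. Cells thinned to 8000 UMIs and left with 0 Cdkn1a UMIs were an alternative chosen after seeing the data. In them 2 genes were at least 1.5-fold higher in CCA over control (8.23% of all genes were higher and 2.49% lower). In CCANT over control the count was also 2 (9.03% and 4.56%). Thinning alone gave 6 in CCA (9.99% and 2.56%) and 5 in CCANT (9.67% and 4.6%). A 2-fold threshold gave 3 genes for CCA over control (4.49% of all genes were higher and 0.602% lower), 0 for cycling CCA cells (4.05% and 0.291%), 5 for control cells with Cdkn1a (2.65% and 5.38%), and, over all pairs of gene and cell class, 13 of 89 in CCA (12 higher and 1 lower, where 5.08% and 4.03% of all such pairs were) and 14 of 79 in CCANT (all higher, 5.15% and 3.64%) in place of 26 each (9.88% and 8.07% in CCA, 10.7% and 7.81% in CCANT). For CCANT over CCA, 1 gene was called, each time lower in CCANT, with cells thinned to 8000 UMIs (2.53% of all genes were higher and 4.93% lower), with cells at or under the median immediate-early share (3.45% and 5.83%), with the mean of per-cell CPM (1.9% and 4.42%) and with Xist cells on both sides (2% and 5.2%). Asking for at least 2 UMIs of Mki67 and Top2a gave 4 genes in control (3 higher, 1 lower, where 21.3% of all genes were higher and 36.4% lower), 5 in CCA (15.2% and 10.7%) and 3 in CCANT (15.7% and 11.3%). Thinning before the cycling split gave 6 in control (2 higher, 4 lower, where 19.1% and 33.6% of all genes were), 2 in CCA (12.6% and 7.63%) and 2 in CCANT (14.4% and 11.2%), the joint table gave 1 in control (10.4% and 13.1%), and cells under 1% rod marker UMIs gave 1 in CCANT (8.2% and 3.64%). The cause of these differences was not tested. The other 64 alternative counts stayed within 1.5 times of the reported ones. Of the single-gene log2 ratios under the alternatives, 849 lay within the interval of the reported ratio and 137 lay outside it. No gene past 1.5-fold in a reported comparison changed direction. Scrublet's own threshold called no cell in control and CCANT, so the planned removal of doublets was not run. Leaving out the top 10% of its scores, chosen after seeing the data, kept the counts at 6, 4 and 0 for the 3 library comparisons. Of all genes, 9.26% were then higher and 1.96% lower in CCA over control, and 9.33% and 4.25% in CCANT over control. For CCANT over CCA the shares were 2.22% and 4.16%. Median-of-ratios scaling moved the median of all genes by 0.060 on the log2 scale for CCA. Depth limits Eda2r and Bbc3 in neurons and pericyte-like cells, and all genes in the 42 cycling control cells.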
